A study of Mus musculus with 12 samples.

Results

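The Slc25 genes encode the mitochondrial carrier family, and their RNA was compared between livers of wild-type (WT) mice and of mice lacking Gcg (Gcg KO), the gene of the glucagon precursor. Members were chosen by symbol: rows of the deposited table matching Slc25a followed by a number, with a mean of at least 0.5 RPKM over the 12 libraries. RPKM is the read count of a gene scaled to its length and to the depth of the library. Of 24475 genes in the table, 47 matched and 38 reached that mean. All mice were fed, and the genotypes are labelled WT and Gcg KO, the second also written Gcg-/-. Each group had 6 libraries of polyadenylated RNA from whole liver, named here by the number in their titles, WT 1 to WT 6 and Gcg KO 7 to Gcg KO 12. The sources used here do not give strain, sex, age or the way in which the Gcg allele was made.

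Carriers of this family sit in the inner mitochondrial membrane, apart from a few in peroxisomes or the outer membrane, and exchange metabolites between the matrix and the cytosol. Each is built from repeats of paired membrane helices and takes a narrow set of substrates. In hepatocytes they link pathways that are split between the compartments. The urea cycle needs ornithine to enter the matrix and citrulline to leave it, the malate-aspartate shuttle needs aspartate to leave, and oxidative phosphorylation needs ADP and phosphate to enter. Glucagon raises amino acid breakdown, urea synthesis and gluconeogenesis in the liver.

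The depth was estimated from the lowest values at 10300000 to 15000000 reads per library, at which 0.5 RPKM on a transcript of 2 kb is worth 10.3 to 15.02 reads. Gcg was listed at 0 in all 12 libraries, so the targeted gene checked no label. WT 6, Gcg KO 10 and Gcg KO 12 stood apart at the high end of the first principal component (17.0 to 28.8). The other 9 libraries were themselves widely spread on it, from -21.9 in WT 4 to 6.99 in Gcg KO 9. Members that differed in the 3 libraries that stood apart are described with and without them. The summed RPKM of the hepatocyte markers was 42822 to 57036 in WT and 42886 to 52899.6 in Gcg KO, with Alb the most abundant. Of 39 marker genes tested (hepatocyte, erythroid, neutrophil, Kupffer cell, endothelial, stellate cell, cholangiocyte, lymphocyte, muscle and adipocyte), 3 passed the test for a difference. Cfd, in the adipocyte list, was higher in Gcg KO (2.45 to 27.9 RPKM against 0.0743 to 0.552), whereas the other adipocyte markers, Adipoq and Plin1, were at most 0.138 RPKM in every library. Lyve1, an endothelial marker, was higher (4.78 to 9.68 RPKM against 2.06 to 4.43) and Hbb-bs, a globin, lower (4.29 to 4.99 RPKM against 4.15 to 8.48, overlapping). The summed adipocyte list was 0.0862 to 0.736 RPKM in WT and 2.45 to 28.01 RPKM in Gcg KO, and the summed endothelial list 53.8 to 70.3 and 58.7 to 90.5 RPKM. These genes were named after their values were seen, and their part in the results was not tested. In bulk tissue, fewer cells of a type and less RNA per cell cannot be told apart.

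The family spanned a wide range of levels in WT liver. Slc25a47, a carrier found mainly in liver whose substrate is unsettled, was the highest at 284 ± 107 RPKM (SD, n = 6). It was followed by Slc25a5, an ADP/ATP exchanger, at 248 ± 12.1 RPKM, and Slc25a39, a glutathione carrier, at 187 ± 15.1 RPKM. Slc25a3, which imports the phosphate for ATP synthesis, stood at 156 ± 4.49 RPKM, and Slc25a15, the ornithine carrier of the urea cycle, at 123 ± 23.2 RPKM. Over the 6 WT libraries the range of Slc25a47 overlapped that of Slc25a5, and the range of Slc25a3 that of Slc25a15, whereas Slc25a39 lay below Slc25a5 and above Slc25a3 in every library. In all, 11 members had a WT mean of at least 50 RPKM, 17 lay between 5 and 50 RPKM and 10 below 5 RPKM. Since RPKM is scaled to length, these levels can be set side by side. Summed over the 38 members, the family made up 0.261% to 0.336% of all RPKM in WT libraries and 0.239% to 0.304% in Gcg KO libraries.

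**Figure D1:**
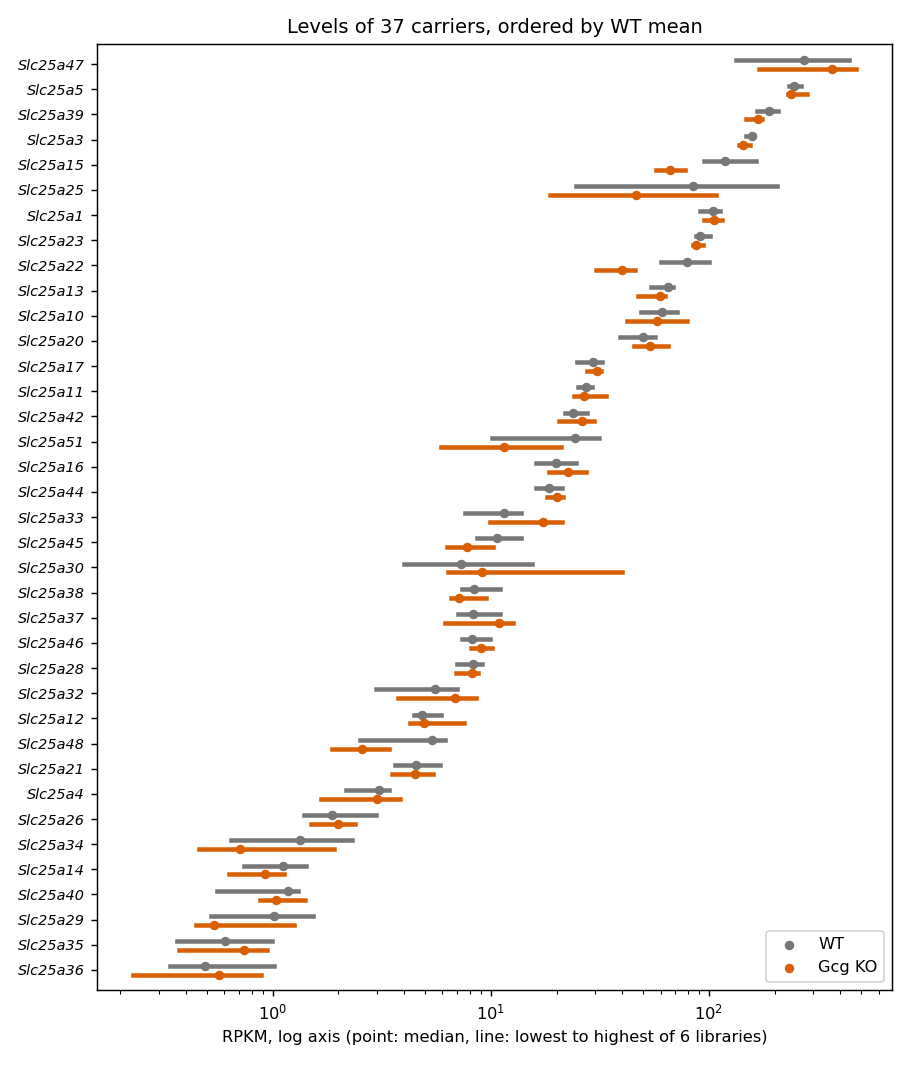
RPKM on a log axis of 37 Slc25 members, ordered by their WT mean, with the median (point) and the lowest to highest value (line) of 6 WT (grey) and 6 Gcg KO (orange) libraries. Slc25a22 and Slc25a15 are the members whose lines do not overlap, and Slc25a25 has one of the longest lines in both groups.

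The rule left out 9 genes of low expression. Slc25a36 (0.575 RPKM over the 12 libraries) and Slc25a35 (0.661) lay just inside the limit, and Slc25a24 (0.342) and Slc25a27 (0.321) just outside. Slc25a2, an ornithine carrier close to Slc25a15, had 0.128 RPKM, Slc25a18, a glutamate carrier close to Slc25a22, had 0.0404 RPKM, and Slc25a31, an ADP/ATP exchanger of germ cells, had 0.0495 RPKM. Slc25a53 had 0.116 RPKM and Slc25a43 0.0195 RPKM, while Slc25a41 and Slc25a54 were listed at 0 in all 12 libraries. None of these 9 was tested.

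Of the 38 members, 3 were lower in Gcg KO livers, 0 were higher and 35 did not pass the threshold (limma on log2(RPKM + 0.5), Benjamini-Hochberg adjustment over 11347 genes, threshold 0.05). Over all genes tested, 1.92% passed as lower and 1.95% as higher. The 3 were Slc25a22 and Slc25a15, carriers of glutamate and ornithine, and Slc25a48, listed among the carriers without an assigned substrate. The groups did not overlap for 2 members, both lower (Slc25a22 and Slc25a15), where 1.5% of all genes tested were lower and 1.6% higher without overlap. Without adjustment 8 members had p below 0.05, 7 with a lower and 1 with a higher mean, and 15.7% of all genes had such a p. The split of that share by direction over all genes was not computed. The median log2 fold change (Gcg KO over WT) was -0.01 over the members and 0.01 over all genes tested. Nothing in the labels says that the libraries came from separate mice, so the p-values measure only how these samples spread, and that spread may be technical.

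**Figure D2:**
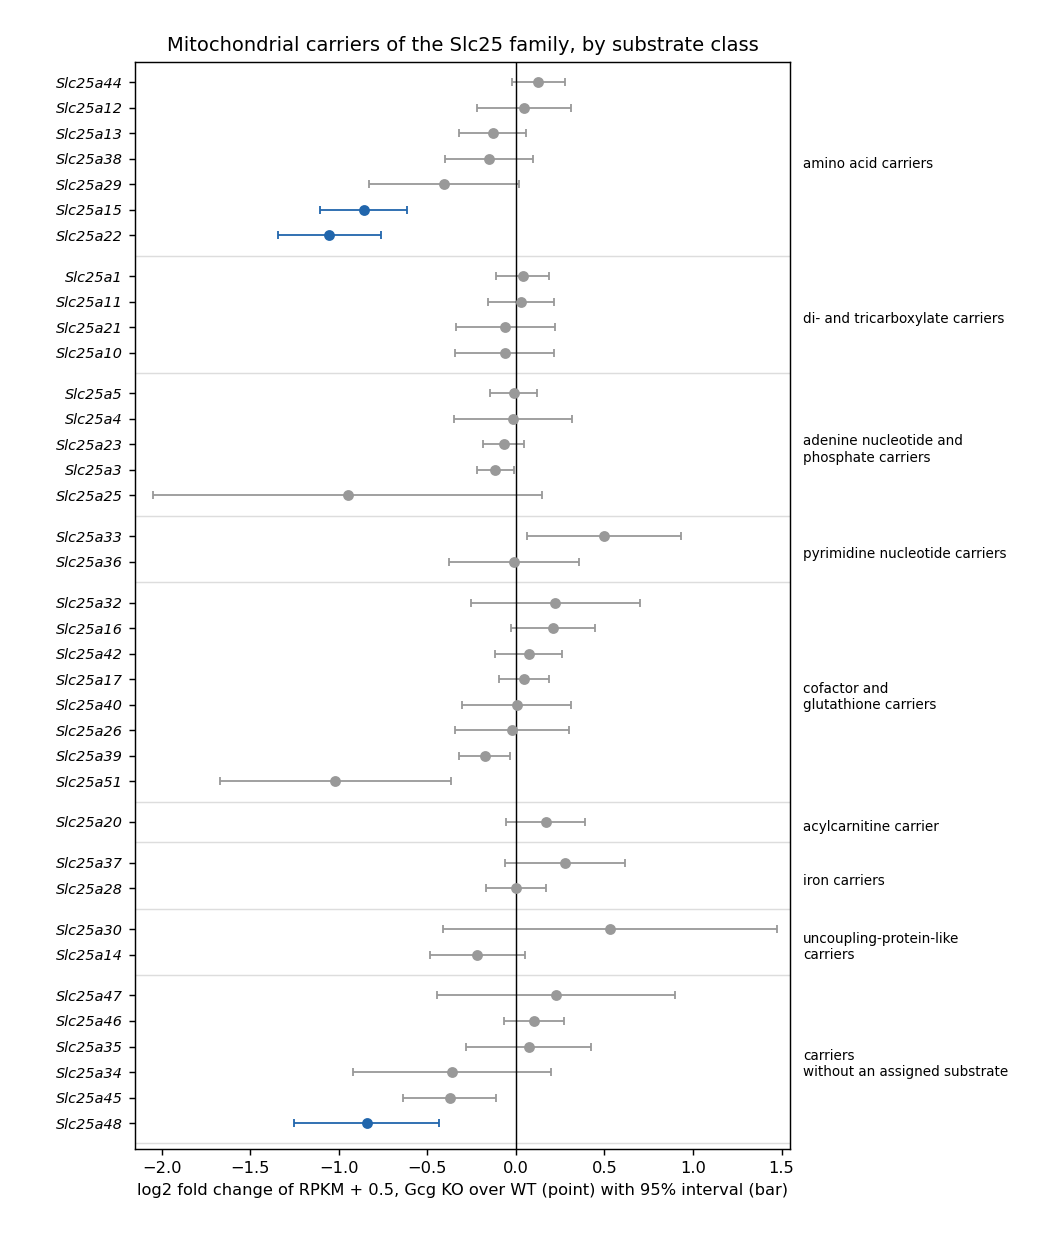
Log2 fold change of RPKM + 0.5, Gcg KO over WT, of 37 members in 9 substrate classes, with the 95% interval from limma as a bar. Blue points passed the adjusted threshold (Slc25a22, Slc25a15 and Slc25a48, all lower), grey points did not.

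The promoter sequences of the 3 members that fell and of Slc25a25 are given from RefSeq (GRCm38.p6). Each is 250 bases before and 50 bases after an annotated start, read 5′ to 3′ along the gene. For the 3 members that fell, the window is the one nearest to the start of the principal transcript in GENCODE, of 2 annotated windows for Slc25a15, 3 for Slc25a22 and 1 for Slc25a48. Slc25a25, which did not pass and is described further below, is shown because 1 of its 3 windows holds the full cAMP response element (CRE). Its window was chosen for that element and not by its distance to a principal start. Capitals mark the CRE core, TGACG on either strand, which overlaps itself in the full element TGACGTCA.
Slc25a15 (chr8:22398572-22398871, minus strand): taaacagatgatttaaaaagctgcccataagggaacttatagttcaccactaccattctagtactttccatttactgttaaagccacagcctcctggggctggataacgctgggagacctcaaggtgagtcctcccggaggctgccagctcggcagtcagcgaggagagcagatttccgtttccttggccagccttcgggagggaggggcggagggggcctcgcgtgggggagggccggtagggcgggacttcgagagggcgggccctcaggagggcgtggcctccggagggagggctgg
Slc25a22 (chr7:141434545-141434844, minus strand): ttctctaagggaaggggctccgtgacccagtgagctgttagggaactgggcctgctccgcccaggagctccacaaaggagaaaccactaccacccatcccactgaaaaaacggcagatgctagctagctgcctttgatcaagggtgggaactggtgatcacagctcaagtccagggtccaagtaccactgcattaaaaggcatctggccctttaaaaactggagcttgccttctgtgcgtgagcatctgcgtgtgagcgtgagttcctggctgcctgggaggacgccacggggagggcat
Slc25a48 (chr13:56438105-56438404, plus strand): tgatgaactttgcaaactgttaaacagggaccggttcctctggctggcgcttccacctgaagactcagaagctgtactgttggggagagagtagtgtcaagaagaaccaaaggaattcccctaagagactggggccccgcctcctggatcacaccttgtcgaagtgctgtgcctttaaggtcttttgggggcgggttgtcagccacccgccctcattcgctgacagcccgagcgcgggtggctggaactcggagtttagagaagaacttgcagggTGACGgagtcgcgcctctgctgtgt
Slc25a25 (chr2:32424017-32424316, minus strand): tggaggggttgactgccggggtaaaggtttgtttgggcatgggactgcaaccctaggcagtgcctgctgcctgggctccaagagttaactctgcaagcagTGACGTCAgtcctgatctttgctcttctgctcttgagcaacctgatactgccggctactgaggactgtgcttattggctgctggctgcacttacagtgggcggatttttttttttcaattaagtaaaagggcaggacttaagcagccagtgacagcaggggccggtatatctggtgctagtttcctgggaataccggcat
Of the 38 members, 30 had windows in the table, 39 in all. The CRE core was in 12 of these 39 windows (30.8%) and in 20.8% of all 32851 promoter windows of that length. Windows of 1 gene can overlap and share a match, as for Slc25a14. Counted by gene, the core was in 11 of the 30 members and in 23.0% of 27025 genes. The full CRE was in 2 of the members' windows, those of Slc25a25 and Slc25a36, and in 1.79% of all windows. The windows shown for Slc25a15 and Slc25a22, and their other annotated windows, held no CRE core. In Slc25a48 the core began at base 26 after the start, counting the start as 1, and in Slc25a25 the full element began 150 bases before it. These letter matches describe the windows and do not show binding.

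Amino acid carriers held the members with the smallest p-values of the family. Slc25a22 (Entrez 68267, chromosome 7, 141429749 to 141437874, GRCm38) imports glutamate with a proton. It had 80.4, 77.5, 72.4, 91.7, 99.9 and 60.5 RPKM in WT 1 to WT 6. In Gcg KO 7 to Gcg KO 12 it had 43.03, 45.9, 36.6, 30.4, 44.2 and 30.8 RPKM. Every Gcg KO library lay below every WT library, and the lowest value of each group was in a library that stood apart, WT 6 and Gcg KO 10. Slc25a22 fell 2.08-fold (log2 fold change -1.05 ± 0.13 SE, 95% interval -1.34 to -0.76, adjusted p = 4.6e-04). Without WT 6, Gcg KO 10 and Gcg KO 12 its log2 fold change was -0.98 (adjusted p = 7.5e-04).

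Slc25a15 (Entrez 18408, chromosome 8, 22375550 to 22398621) exchanges cytosolic ornithine for matrix citrulline. Its levels in WT 1 to WT 6 were 128, 111, 121, 117, 164 and 94.6 RPKM. In Gcg KO 7 to Gcg KO 12 they were 62.3, 69.9, 69.2, 56.99, 77.99 and 63.9 RPKM. The highest Gcg KO library, number 11, stayed below the lowest WT library, number 6. The fall was 1.82-fold (log2 fold change -0.86 ± 0.11 SE, 95% interval -1.11 to -0.61, adjusted p = 6.6e-04), and without the 3 libraries that stood apart the log2 fold change was -0.86 (adjusted p = 0.00275). Both Slc25a22 and Slc25a15 passed in all 21 alternatives tried.

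The other amino acid carriers did not pass. Slc25a13 (citrin), which exports aspartate in exchange for glutamate and is the liver form of this exchanger, ranged from 54.2 to 68.6 RPKM in WT (median 65.00) and from 47.1 to 62.9 RPKM in Gcg KO (median 59.4). The groups overlapped over most of their range (log2 fold change -0.13, 95% interval -0.32 to 0.06, adjusted p = 0.529). Slc25a12 (aralar), the same exchanger of muscle and brain, ranged from 4.43 to 5.92 RPKM in WT (median 4.85) and from 4.25 to 7.56 RPKM in Gcg KO (median 4.93). In WT the mean RPKM of Slc25a13 was 12.4 times that of Slc25a12, and in Gcg KO 10.8 times.

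Slc25a29, a carrier of basic amino acids, was low in both groups, from 0.520 to 1.53 RPKM in WT (median 1.01) and from 0.446 to 1.25 RPKM in Gcg KO (median 0.537). Its log2 fold change was -0.41 with a 95% interval of -0.83 to 0.02 (adjusted p = 0.339). Slc25a38, which brings glycine into the matrix for haem synthesis, had 8.58 ± 1.38 RPKM in WT livers and 7.69 ± 1.28 RPKM in Gcg KO livers. Slc25a44, a carrier of branched-chain amino acids, had 18.3 ± 1.78 RPKM in WT livers and 19.96 ± 1.15 RPKM in Gcg KO livers (adjusted p = 0.416). Of the 7 members of this class, 2 fell, 0 rose and 5 did not pass, with a median log2 fold change of -0.15. Their summed level was 255 to 362 RPKM in WT and 178 to 204 RPKM in Gcg KO, and Slc25a15, Slc25a22 and Slc25a13 made up most of it.

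**Figure D3:**
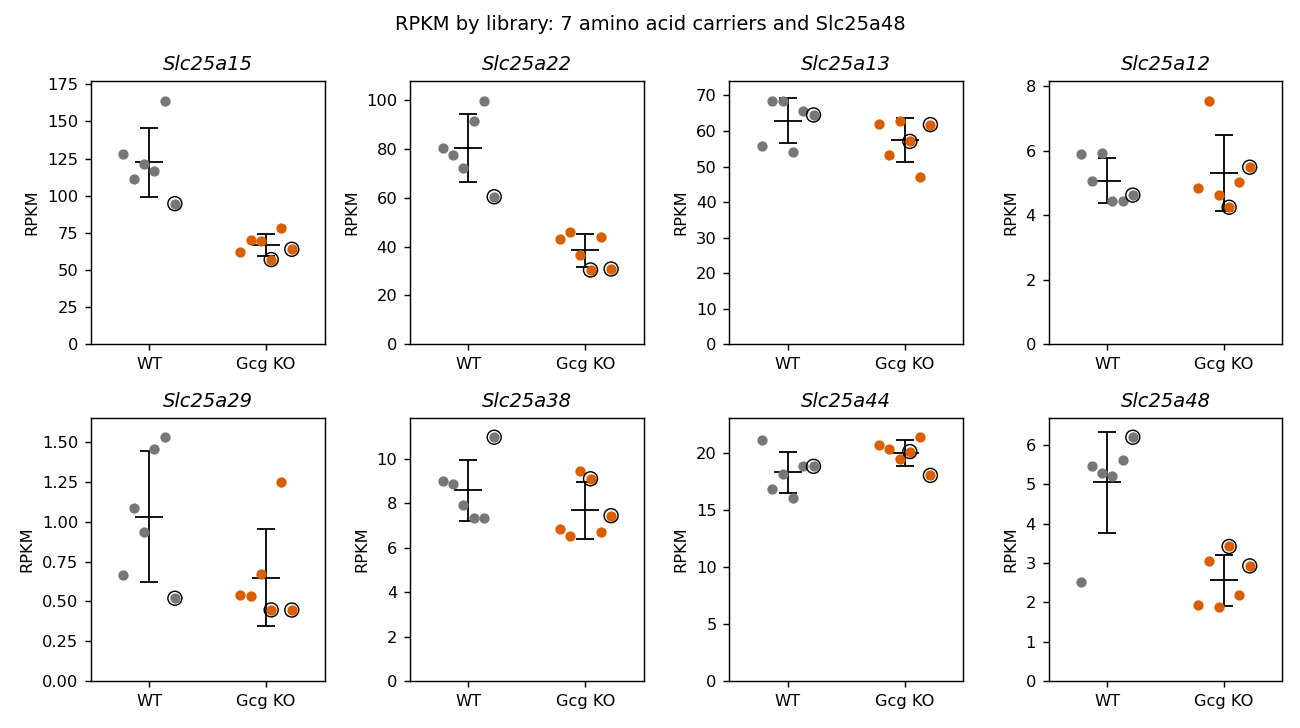
RPKM of the 7 amino acid carriers and of Slc25a48 in each library, with grey for WT and orange for Gcg KO, with black bars for the mean and SD of each group (n = 6) and rings around WT 6, Gcg KO 10 and Gcg KO 12. For Slc25a15 and Slc25a22 all orange points lie below all grey points, and for Slc25a48 the low grey point is WT 1, at 2.52 RPKM.

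Enzymes of the pathways around these carriers were read from the same fit. One list held 9 enzymes of the urea cycle or of ornithine and glutamate handling around it, and not all of them act on ornithine or glutamate. Of these 9, 7 fell, 0 rose and 2 did not pass, with a median log2 fold change of -0.76. The 2 with the smallest p-values were Oat, which turns ornithine into glutamate semialdehyde (461 ± 41.1 to 90.3 ± 19.6 RPKM), and Gls2, the liver glutaminase (173 ± 10.7 to 35.5 ± 9.30 RPKM). Slc25a15 (-0.86) and Slc25a22 (-1.05) changed in the same direction as the 7 enzymes that fell. Their log2 fold changes were smaller in size than those of Oat (-2.37) or Gls2 (-2.31) and larger in size than the median of the list. The 2 enzymes of this list that did not pass were Otc (ornithine transcarbamylase) and Glud1 (glutamate dehydrogenase). Of the 4 malate-aspartate shuttle enzymes, 2 fell: Got1, the cytosolic aspartate aminotransferase (169 ± 59.4 to 19.00 ± 8.11 RPKM), and Mdh2, the matrix malate dehydrogenase (117 ± 5.47 to 99.6 ± 6.81 RPKM). The carriers of that shuttle, Slc25a13 and Slc25a11, did not pass, with 95% intervals of -0.32 to 0.06 and -0.16 to 0.21 on the log2 scale. These lists were compiled with earlier results of these data known and are not independent support.

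Di- and tricarboxylate carriers differed little between the groups. Slc25a1 exports citrate for fatty acid synthesis and ranged from 90.7 to 112 RPKM in WT (median 104) and from 95.2 to 115 RPKM in Gcg KO (median 105). Slc25a10, which exchanges malate or succinate for phosphate, ranged from 48.8 to 71.4 RPKM in WT (median 60.7) and from 42.1 to 79.2 RPKM in Gcg KO (median 57.97). Slc25a11, the oxoglutarate/malate carrier, ranged from 25.2 to 29.1 RPKM in WT (median 27.2) and from 24.00 to 33.6 RPKM in Gcg KO (median 26.6). Slc25a21, a carrier of oxoadipate and related acids, had 4.69 ± 0.904 RPKM in WT livers and 4.47 ± 0.784 RPKM in Gcg KO livers. For these 4 members the log2 fold changes lay between -0.06 and 0.04 with adjusted p of at least 0.871. The 95% interval of Slc25a1, -0.11 to 0.19, was the narrowest of this class, and those of Slc25a10 and Slc25a21 ran from -0.34 to 0.22 and -0.34 to 0.22.

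Carriers of adenine nucleotides and phosphate were the most abundant class, at 555 to 702 RPKM in WT and 495 to 571 RPKM in Gcg KO when summed. Slc25a5 ranged from 232 to 265 RPKM in WT (median 245) and from 229.9 to 280.3 RPKM in Gcg KO (median 239). Its log2 fold change was -0.01 with a 95% interval of -0.14 to 0.12. RefSeq lists a pseudogene, Slc25a5-ps, and the sources used here do not say how reads from near-identical copies were divided, so the level of Slc25a5 is uncertain. Slc25a4, the ADP/ATP exchanger of heart and muscle, ranged from 2.17 to 3.41 RPKM in WT (median 3.08) and from 1.67 to 3.83 RPKM in Gcg KO (median 3.02).

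Slc25a3 ranged from 148 to 161 RPKM in WT (median 157) and from 137 to 154 RPKM in Gcg KO (median 143), and the ranges overlapped. Its log2 fold change of -0.12 had an unadjusted p of 0.0303 and did not pass (adjusted p = 0.247). Slc25a23, an ATP-Mg/phosphate carrier regulated by calcium, ranged from 87.2 to 101 RPKM in WT (median 91.4) and from 84.3 to 93.7 RPKM in Gcg KO (median 87.1). All 5 members of the class had a negative log2 fold change, and 0 passed, with an unadjusted p below 0.05 for 1 (Slc25a3). For Slc25a5 and Slc25a4 it was -0.01 and -0.02, and its sign changed in 5 and 4 of the 21 alternatives. Of all 38 members, 21 had a negative and 17 a positive log2 fold change.

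Slc25a25, another calcium-regulated ATP-Mg/phosphate carrier, varied more between libraries than any other member tested in WT. It had 91.5, 75.2, 76.9, 204, 187 and 24.7 RPKM in WT 1 to WT 6. In Gcg KO 7 to Gcg KO 12 it had 34.5, 58.3, 77.1, 18.7, 108 and 29.5 RPKM. The groups overlapped widely, and WT 6, Gcg KO 10 and Gcg KO 12 held the 3 lowest values. The log2 fold change was -0.95 with a 95% interval of -2.05 to 0.15 (adjusted p = 0.403), and -0.84 without these 3 libraries (adjusted p = 0.337). The interval covers both no difference and a fall of the size seen in Slc25a22.

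Slc25a47 was also lowest in the same 3 libraries. It lay between 133 and 190.2 RPKM in WT 6, Gcg KO 10 and Gcg KO 12 and between 226 and 474 RPKM in the other 9. By group it ranged from 133 to 439.6 RPKM in WT (median 273) and from 169 to 474 RPKM in Gcg KO (median 368). The log2 fold change was 0.22 with a 95% interval of -0.45 to 0.90 (adjusted p = 0.808), and 0.42 without the 3 libraries (adjusted p = 0.308). With 1 library left out it ran from 0.0239 without WT 6 to 0.40 without Gcg KO 12, and it was also moved by over 1.5 times without WT 4 (0.37), Gcg KO 7 (0.12), Gcg KO 10 (0.37) or Gcg KO 11 (0.10). Slc25a47 (chromosome 12, 108849833 to 108856815) lies close to Slc25a29 (108825878 to 108835876), which was also lowest in these 3 libraries, at 0.446 to 0.520 RPKM against 0.536 to 1.53 RPKM in the other 9. The members for which the 3 libraries lay outside the range of the other 9 were Slc25a25, Slc25a47, Slc25a29 and Slc25a51, all below, and Slc25a20, above. The 3 libraries were picked by their position on the first principal component of these same values. The share of all genes tested that separated them was not computed, so the separation cannot be called particular to these members. The summed neutrophil markers were also lowest in these libraries, 2.30 to 3.49 RPKM against 17.4 to 63.05 RPKM. The summed muscle markers were highest in them, 0.932 to 1.91 RPKM against 0.294 to 0.834 RPKM, and the other 8 marker lists overlapped. Only 1 of the 5 muscle markers, Mylpf, reached a mean of 0.5 RPKM, so the muscle sum lies near the limit of expression. The part of these marker genes in these levels was not tested.

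**Figure D4:**
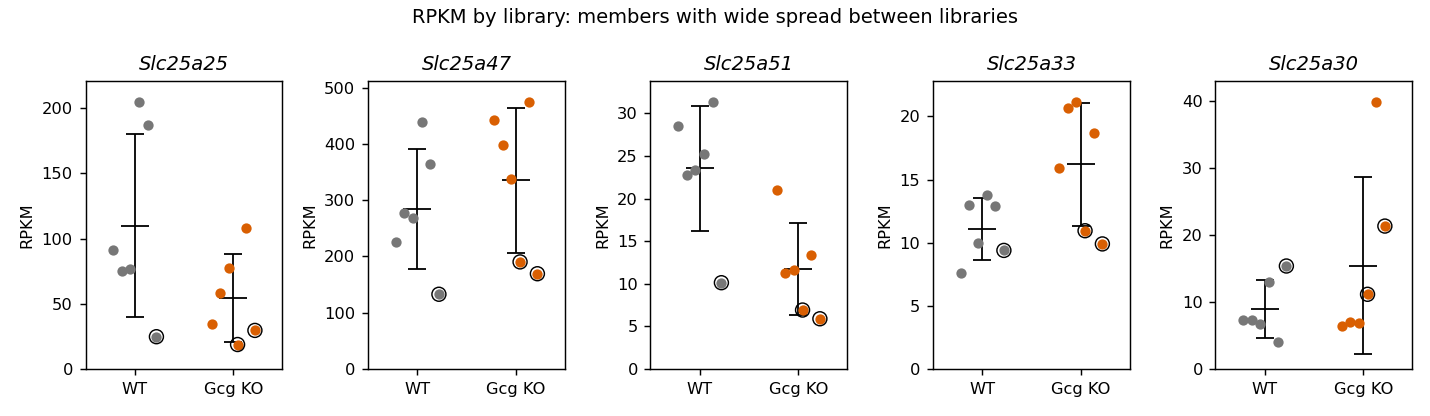
RPKM in each library of 5 members, Slc25a25, Slc25a47, Slc25a51, Slc25a33 and Slc25a30, with grey for WT and orange for Gcg KO, with black bars for the mean and SD of each group (n = 6). Rings mark WT 6, Gcg KO 10 and Gcg KO 12, which hold the 3 lowest values of Slc25a25, Slc25a47 and Slc25a51.

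Cofactor carriers included 1 member whose call turned on single libraries. Slc25a51 (Entrez 230125, chromosome 4, 45395923 to 45408917) imports NAD. It had 28.6, 22.8, 23.4, 25.2, 31.3 and 10.1 RPKM in WT 1 to WT 6. In Gcg KO 7 to Gcg KO 12 it had 21.04, 11.3, 11.7, 6.91, 13.3 and 5.89 RPKM. All WT libraries except WT 6 lay above all Gcg KO libraries. Over the 12 libraries the log2 fold change was -1.02 ± 0.30 SE and missed the threshold (adjusted p = 0.0885).

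Slc25a51 passed without WT 6 (log2 fold change -1.24, adjusted p = 0.0180), without Gcg KO 7 (-1.21, adjusted p = 0.0368) and without WT 6, Gcg KO 10 and Gcg KO 12 together (-0.88, adjusted p = 0.0236). In the 18 other alternatives it did not pass. In that comparison without the 3 libraries 4 members were lower (Slc25a22, Slc25a15, Slc25a48 and Slc25a51) and 1 was higher (Slc25a33), where 1.52% of all genes passed as lower and 1.15% as higher. The comparison was chosen with the position of these libraries known.

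The remaining cofactor and glutathione carriers did not pass. Slc25a39 ranged from 166 to 208 RPKM in WT (median 188) and from 148 to 176 RPKM in Gcg KO (median 167). Its log2 fold change of -0.18 (95% interval -0.32 to -0.03) had an adjusted p of 0.198. Slc25a40, its close relative, ranged from 0.552 to 1.30 RPKM in WT (median 1.17) and from 0.871 to 1.41 RPKM in Gcg KO (median 1.04). Slc25a16, linked to coenzyme A, ranged from 16.03 to 24.5 RPKM in WT (median 19.9) and from 18.4 to 27.3 RPKM in Gcg KO (median 22.5), and its log2 fold change was 0.21 (adjusted p = 0.391). Slc25a42, also linked to coenzyme A, ranged from 21.8 to 27.7 RPKM in WT (median 23.7) and from 20.6 to 29.9 RPKM in Gcg KO (median 26.1), with a log2 fold change of 0.07. Slc25a17, a peroxisomal carrier of cofactors, had 29.2 ± 2.46 RPKM in WT livers and 30.04 ± 1.66 RPKM in Gcg KO livers. Slc25a32, a carrier of folate and FAD, had 5.34 ± 1.54 RPKM in WT livers and 6.35 ± 1.93 RPKM in Gcg KO livers. Slc25a26, which carries S-adenosylmethionine, had 1.997 ± 0.576 RPKM in WT livers and 1.93 ± 0.366 RPKM in Gcg KO livers. Of the 9 members of this class 0 passed, with an unadjusted p below 0.05 for 2 (Slc25a39 and Slc25a51), and 3 had a negative and 6 a positive log2 fold change.

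Slc25a33, a pyrimidine nucleotide carrier, was the member with the smallest p among those with a higher mean in Gcg KO. It had 7.58, 12.98, 9.99, 13.8, 12.9 and 9.39 RPKM in WT 1 to WT 6. In Gcg KO 7 to Gcg KO 12 it had 15.9, 20.7, 21.1, 10.9, 18.7 and 9.90 RPKM. Gcg KO 10 and Gcg KO 12 fell within the WT range, and the other 4 Gcg KO libraries lay above it. The log2 fold change was 0.50 ± 0.20 SE (adjusted p = 0.236). Without WT 6, Gcg KO 10 and Gcg KO 12 it was 0.74 and passed (adjusted p = 0.0448), the only 1 of 21 alternatives in which it did. Slc25a36, the other pyrimidine nucleotide carrier, ranged from 0.337 to 1.02 RPKM in WT (median 0.489) and from 0.229 to 0.884 RPKM in Gcg KO (median 0.569).

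Among carriers without an assigned substrate in the class list, Slc25a48 (Entrez 328258, chromosome 13, 56437960 to 56472367) passed. Later work outside these data links it to choline import. It had 2.52, 5.47, 5.27, 5.20, 5.63 and 6.19 RPKM in WT 1 to WT 6. In Gcg KO 7 to Gcg KO 12 it had 1.92, 3.05, 1.87, 3.42, 2.18 and 2.92 RPKM. WT 1 lay within the Gcg KO range and the other 5 WT libraries above it. Slc25a48 fell 1.79-fold (log2 fold change -0.84 ± 0.19 SE, 95% interval -1.25 to -0.43, adjusted p = 0.0251).

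The call of Slc25a48 was close to the threshold. Adjusted p was 0.0548 to 0.0608 without WT 2, WT 3, WT 4, WT 5, Gcg KO 7 or Gcg KO 9, each left out alone, and 0.0548 with no filter on low values. Its log2 fold change stayed between -1.01 and -0.75 over the 21 alternatives, and without WT 1 it was -1.01 (adjusted p = 0.00109). Slc25a45, in the same class, had 10.7 ± 1.72 RPKM in WT livers and 8.19 ± 1.45 RPKM in Gcg KO livers (log2 fold change -0.37, adjusted p = 0.125). Slc25a46, a carrier of the outer membrane that acts in mitochondrial shape, had 8.47 ± 0.968 RPKM in WT livers and 9.11 ± 0.680 RPKM in Gcg KO livers. Slc25a34 had 1.38 ± 0.608 RPKM in WT livers and 0.986 ± 0.588 RPKM in Gcg KO livers, and Slc25a35 had 0.629 ± 0.215 RPKM in WT livers and 0.693 ± 0.251 RPKM in Gcg KO livers, and neither passed.

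The acylcarnitine and iron carriers and the members related to uncoupling proteins gave no call. Slc25a20, which brings long-chain acylcarnitines into the matrix for oxidation, ranged from 39.1 to 56.4 RPKM in WT (median 49.8) and from 45.4 to 64.7 RPKM in Gcg KO (median 53.8), with a log2 fold change of 0.17 (95% interval -0.06 to 0.39). Its 3 highest values were in Gcg KO 12, Gcg KO 10 and WT 6. Slc25a28 and Slc25a37 are the mitoferrins, which bring iron into the matrix. Slc25a28 ranged from 7.004 to 9.13 RPKM in WT (median 8.26) and from 6.94 to 8.75 RPKM in Gcg KO (median 8.24). Slc25a37 ranged from 7.07 to 10.98 RPKM in WT (median 8.32) and from 6.17 to 12.6 RPKM in Gcg KO (median 10.9), with a log2 fold change of 0.28 (adjusted p = 0.438). The summed erythroid markers, whose cells use Slc25a37, were 235 to 441 RPKM in WT and 239 to 305 RPKM in Gcg KO, so the groups overlapped. Slc25a14 had 1.12 ± 0.260 RPKM in WT livers and 0.886 ± 0.171 RPKM in Gcg KO livers. Slc25a30 ranged from 3.98 to 15.4 RPKM in WT (median 7.32) and from 6.34 to 39.8 RPKM in Gcg KO (median 9.09), with Gcg KO 11 the highest (log2 fold change 0.53, adjusted p = 0.639). Without Gcg KO 11 the log2 fold change of Slc25a30 was 0.19, and without WT 5, the lowest WT library, 0.34.

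Ratios between carriers of like substrates were compared to see whether the balance within a pair differed between the groups. Of 10 pairs listed, 9 had both members expressed; Slc25a22 and Slc25a18 could not be compared because Slc25a18 lay below the limit. The log2 ratio of Slc25a15 to Slc25a29 averaged 6.35 ± 0.308 over the 6 WT libraries and 5.90 ± 0.220 over the 6 Gcg KO libraries (SD). Gcg KO was lower by a log2 difference of -0.45 (exact permutation test over all arrangements of the libraries, two-sided, p = 0.0130, adjusted over the 9 pairs p = 0.117). It did not pass. The difference ranged from -0.56 at a pseudocount of 1 to -0.27 at a pseudocount of 0.1, and its adjusted p ranged from 0.0195 to 0.487 over 15 alternatives, with the highest value at a pseudocount of 0.1 and the lowest at a pseudocount of 1 and without WT 4. For the other 8 pairs the exact permutation p was at least 0.139, where 0.00216 is the smallest the design allows. The difference for Slc25a33 to Slc25a36 was 0.51 over the 12 libraries (exact permutation p = 0.139) and 0.90 without WT 6, Gcg KO 10 and Gcg KO 12 (exact permutation p = 0.0159, adjusted p = 0.143), and 0.32 without Gcg KO 8 alone. Among the others were Slc25a13 to Slc25a12 (difference -0.18, p = 0.325 by the exact permutation test) and Slc25a28 to Slc25a37 (-0.28, exact permutation p = 0.162).

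The spread between libraries set what could be detected. The coefficient of variation (SD as a percentage of the mean) over the 6 WT libraries had a median of 17.5% over the members and 13.6% over all genes tested. It was lowest for Slc25a3 (2.87%), Slc25a5 (4.89%), Slc25a11 (5.35%) and Slc25a23 (5.80%), and highest for Slc25a25 (64.04%), Slc25a30 (48.1%), Slc25a34 (43.99%) and Slc25a36 (43.1%). The 95% interval of the log2 fold change lay within 0.5 of 0 on both sides for 25 of the 38 members, and within 1 of 0 for 32. For all of these 32 members a difference as large as that of Slc25a22 (log2 fold change -1.05) lay outside the interval.

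Other parts of the mitochondrial membranes were read as context. Of 16 tested transporters of the inner membrane outside the Slc25 symbol, 2 rose, 0 fell and 14 did not pass. The 2 were Ucp2, an uncoupling protein of the same carrier family (10.8 ± 1.59 to 23.8 ± 8.195 RPKM, adjusted p = 0.00765), and Micu2, a regulator of the calcium uniporter (13.2 ± 1.44 to 20.2 ± 2.05 RPKM, adjusted p = 0.00124). Of 12 components of the machinery that imports carriers into the inner membrane, 0 passed, with an unadjusted p below 0.05 for 1 (limma, median log2 fold change -0.07). Of 22 respiratory chain subunits, 1 fell, Cox7a2 (155 ± 19.3 to 122 ± 8.70 RPKM, adjusted p = 0.0388), and 21 did not pass (median -0.09).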

How the data were processed

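The authors deposited 1 table of RPKM values with 24475 genes and 12 columns, matched to the samples by the column names in their descriptions; its values were not whole, and 0 columns were left unmatched. The build GRCm38 and the tools CASAVA (1.8.2) and FastQC come from the submitters' processing notes. Libraries were strand-specific, per the labels' protocols. The sources used here do not give the aligner, counter, annotation or treatment of shared reads.

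Genes with a mean of at least 0.5 RPKM (11347) were tested on log2(RPKM + 0.5), so fold changes understate those of low genes, with limma 3.58.1 (R 4.3.3), a mean-variance trend, no covariate, two-sided, and Benjamini-Hochberg adjustment over all genes at 0.05. Intervals are 95%. Depth was estimated from the lowest step of RPKM times length in genes with 1 transcript (within 1%); values were not turned into reads, and no count test was run. Ratios were tested by exact permutation in Python 3.11.15. Coordinates and promoters are RefSeq's, matched by Entrez identifier.

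Members, classes, lists and pairs were chosen with earlier results of these data known. All members are named except 1, which is counted but whose values are not reported here. Members past the threshold, the 5 highest in WT, members of pairs and Slc25a15, Slc25a22, Slc25a13, Slc25a25, Slc25a47, Slc25a1 and Slc25a20 have every library's value or the lowest, median and highest. Of each context list at most the 2 genes with the smallest adjusted p past the threshold are named, and Otc and Glud1 besides. Of marker lists the most abundant gene or genes at 0 are named, with the exceptions given. The fit was tested on simulated data. Alternatives were other pseudocounts (0.1 and 1), no filter or a mean of at least 2, quantile and median-ratio scaling, no trend, robust shrinkage and each library left out; leaving out 3 libraries together was added after the data were seen.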

Additional observations from a re-analysis of the deposited data

Results flagged for a closer look

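In 5 of the 76 member and group combinations, 1 library lay far from the other 5, by the ratio of its gap to the group's range (above 0.625, Dixon's 95% limit for 6 values). Chance alone gives about 1 in 20 such groups, or 3.8 of 76. Slc25a28 in Gcg KO 7 had 6.94 RPKM, below the other 5 libraries of its group (8.14 to 8.75). Slc25a37, the other mitoferrin, had 6.17 RPKM, below the other 5 libraries of its group (10.6 to 12.6) in Gcg KO 11. In the same library Slc25a29 had 1.25 RPKM, above the other 5 libraries of its group (0.446 to 0.675). Slc25a40 in WT 4 had 0.552 RPKM, below the other 5 libraries of its group (1.07 to 1.30). Slc25a48 in WT 1 had 2.52 RPKM, below the other 5 libraries of its group (5.20 to 6.19), and this library alone made its groups overlap.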

How the results depend on the processing

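Of the 38 members, 2 passed in each of the 21 alternatives (20 for members below a mean of 2 RPKM), 3 in some (Slc25a48, Slc25a51 and Slc25a33) and 33 in none. The number lower was 2 to 4 over the alternatives, and the number higher was 0 except without WT 6, Gcg KO 10 and Gcg KO 12, where it was 1. The sign of the log2 fold change changed in some alternative for 12 members, none of them past the threshold there, and in no alternative for 26. With quantile normalization it was 0.0649 for Slc25a5 and -0.0187 for Slc25a40. With median-ratio scaling it was -0.00837 for Slc25a40. Without the 3 libraries it was -0.0813 for Slc25a11, 0.0124 for Slc25a26, -0.0613 for Slc25a40 and -0.00483 for the ratio of Slc25a11 to Slc25a10. With 1 library left out it was -0.0913 to 0.11 for Slc25a4, -0.0493 to 0.00821 for Slc25a5, -0.16 to 0.0248 for Slc25a10, -0.0257 to 0.0699 for Slc25a11, -0.0529 to 0.0997 for Slc25a12, -0.12 to 0.000425 for Slc25a21, -0.0951 to 0.0792 for Slc25a26, -0.0395 to 0.041 for Slc25a28, -0.000293 to 0.16 for Slc25a35, -0.0886 to 0.0962 for Slc25a36 and -0.11 to 0.0436 for Slc25a40. Differences in log2 ratio with 1 library left out were -0.54 to -0.37 for Slc25a15 to Slc25a29, -0.11 to 0.0782 for Slc25a5 to Slc25a4 and -0.0505 to 0.17 for Slc25a11 to Slc25a10. At a pseudocount of 1 the ratio of Slc25a15 to Slc25a29 passed, with a difference of -0.56, and at 0.1 the difference was -0.27. The cause of these changes was not tested. No paired analysis was possible because the libraries are numbered 1 to 12 and the groups share no number. Depth limits the members near 0.5 RPKM, where 1 gene may rest on few reads.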
